A study of Arabidopsis thaliana with 9 samples.

Results

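Pectin is the gel-forming polysaccharide of the plant cell wall, and its main chain, homogalacturonan, leaves the Golgi with most of its acid groups methylesterified and some of its sugars acetylated. Pectin methylesterases remove the methyl groups in the wall, which exposes acid groups that calcium can bridge, or that make the chain accessible to polygalacturonases and pectate lyases. Pectin methylesterase inhibitors are small proteins that bind these enzymes and block them, and pectin acetylesterases remove the acetyl groups. The genes described here are those whose deposited name is PME, PMEI or PAE followed by digits, with or without the letters AT in front and whatever the case. The rule found 76 of the 32833 genes, with 55 named PME, 10 named PMEI and 11 named PAE.

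The names do not always give the function. Roles follow the deposited names except where the RefSeq product named another one. Many members carry no deposited gene ontology term and only a superfamily name as product, so their role rests on the name alone. On that rule the 76 genes are 54 methylesterases, 11 inhibitors, 9 acetylesterases and 2 genes of another kind. Those 2, PAE1 (AT1G53850) and PAE2 (AT3G14290), encode alpha subunits of the proteasome core, and they are kept apart from the 9 acetylesterases below. AT4G12390 is named PME1 but is annotated as an inhibitor, and is called the inhibitor AT4G12390 here. Since 3 names (PME1, PAE1 and PAE2) are each carried by 2 genes, PME1 without an identifier stands for the methylesterase AT1G53840.

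Transcripts were measured by RNA-Seq in rosettes of Arabidopsis thaliana Columbia-0 plants aged 4 weeks, in 3 groups of 3 samples. Flooding was 30 min in an open channel, where metal anchors held the plants, with water moving at 8 L/s. Submergence was 30 min under still water in a plastic container, and control plants received neither stress. The depth was about 10 cm in both cases. Vessel and flow thus differ together between the 2 stresses. No transgene or mutation was involved. Each sample pooled 10 plants, and the study calls its samples independent biological replicates. The columns of the stressed samples name no stress, so flooding and submergence were assigned from the headings of the study's own plots, and the direction of every difference between the 2 stresses rests on that assignment. Levels are FPKM, fragments scaled to the length of the transcript and to the mapped reads of the sample. Differences are log2 fold changes of FPKM + 0.1 from limma, fitted on the 6 samples of a comparison over all genes with a mean of at least 0.5 FPKM. A gene was called where its Benjamini-Hochberg adjusted p was under 0.05.

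The stretches of 250 bases before the annotated gene starts are printed for PME25, an abundant member whose transcripts rose in both stresses, and for PME3, the most abundant member and one that fell. They were read 5′ to 3′ on the strand of each gene from the RefSeq assembly TAIR10.1, in which all 76 genes have the coordinates of the deposited annotation. The positions are chr3:3357755-3358004 on the minus strand for PME25 and chr3:4775259-4775508 on the minus strand for PME3. No other protein-coding gene reaches into either window. Capitals mark TTGAC or its reverse complement GTCAA, the core of the W-box bound by WRKY factors.
PME25: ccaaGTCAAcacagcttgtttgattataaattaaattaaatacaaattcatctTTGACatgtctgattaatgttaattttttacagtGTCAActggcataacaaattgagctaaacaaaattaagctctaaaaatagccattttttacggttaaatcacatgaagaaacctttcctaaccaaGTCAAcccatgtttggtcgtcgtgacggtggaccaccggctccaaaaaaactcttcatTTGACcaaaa
PME3: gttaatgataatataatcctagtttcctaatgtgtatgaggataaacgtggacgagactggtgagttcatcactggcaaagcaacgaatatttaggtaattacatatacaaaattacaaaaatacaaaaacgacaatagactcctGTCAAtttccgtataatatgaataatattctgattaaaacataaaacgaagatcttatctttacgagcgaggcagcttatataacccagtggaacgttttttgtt

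The other motifs were searched on both strands as well. CGCGTT, with AACGCG on the opposite strand, is the element of the calmodulin-binding CAMTA factors. GCCGCC, with GGCGGC on the opposite strand, is the GCC-box of ethylene response factors. CACGTG is the G-box and reads the same on both strands. CACGCG, with CGCGTG on the opposite strand, was the last of them. None of these 4 motifs is present in either window. The window of PME25 holds TTGAC or GTCAA 5 times, and 31 of 27419 windows of all protein-coding genes on the nuclear chromosomes (0.11%) hold them as often. PME25 is the 1 member among those 31. PME25 was chosen for printing with its rise known. At least 1 TTGAC or GTCAA lies in the windows of 40 of the 76 members (52.6%) and of 44.9% of all windows. Among the 9 members called against control in at least 1 stress it lies in the windows of 5. CGCGTT lies in the window of 1 member (1.32%) and in 2.59% of all windows, and CACGTG in those of 2 members (2.63%) and in 6.48% of all windows. GCCGCC and CACGCG lie in those of 0 members and in 1.87% and 2.56% of all windows. These are matches of letters and not binding sites.

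Of the 76 members, 33 had a mean of at least 0.5 FPKM in at least 1 comparison and could be tested. These were 19 of the 54 methylesterases, 5 of the 11 inhibitors, 7 of the 9 acetylesterases and both proteasome subunits. Of the 43 others, 17 were listed at 0 in all 9 samples, and the remaining 26 had no value over 0.64 FPKM. Among them were VANGUARD1 (PME5, AT2G47040) and its neighbour PME4 (AT2G47030), which are pollen genes, with means of 0.0678 and 0.0111 FPKM. PME24 (AT3G10710), known as ROOT HAIR SPECIFIC 12, had a mean of 0.0011 FPKM. PMEI1 (AT1G48020), an inhibitor of pollen tubes, had a mean of 0.1011 FPKM.

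The tested members spanned more than 2 orders of magnitude on a level scale that is per length. PME3 (AT3G14310), the target of a cellulose-binding protein that a parasitic nematode secretes, had by far the highest level, with a mean of 259 FPKM over the 9 samples. PME1 followed at 68.3 FPKM, PME25 at 64.6, PME44 at 38.0 and PME41 at 20.2. Only 13 members had a mean of 10 FPKM or more, namely 7 methylesterases, 2 inhibitors, 2 acetylesterases and both proteasome subunits. The best expressed inhibitors were PMEI7 at 12.6 FPKM and AT4G12390 at 11.2 FPKM, and the best expressed acetylesterases PAE12 at 36.6 FPKM and PAE11 at 33.3 FPKM.

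**Figure D1:**
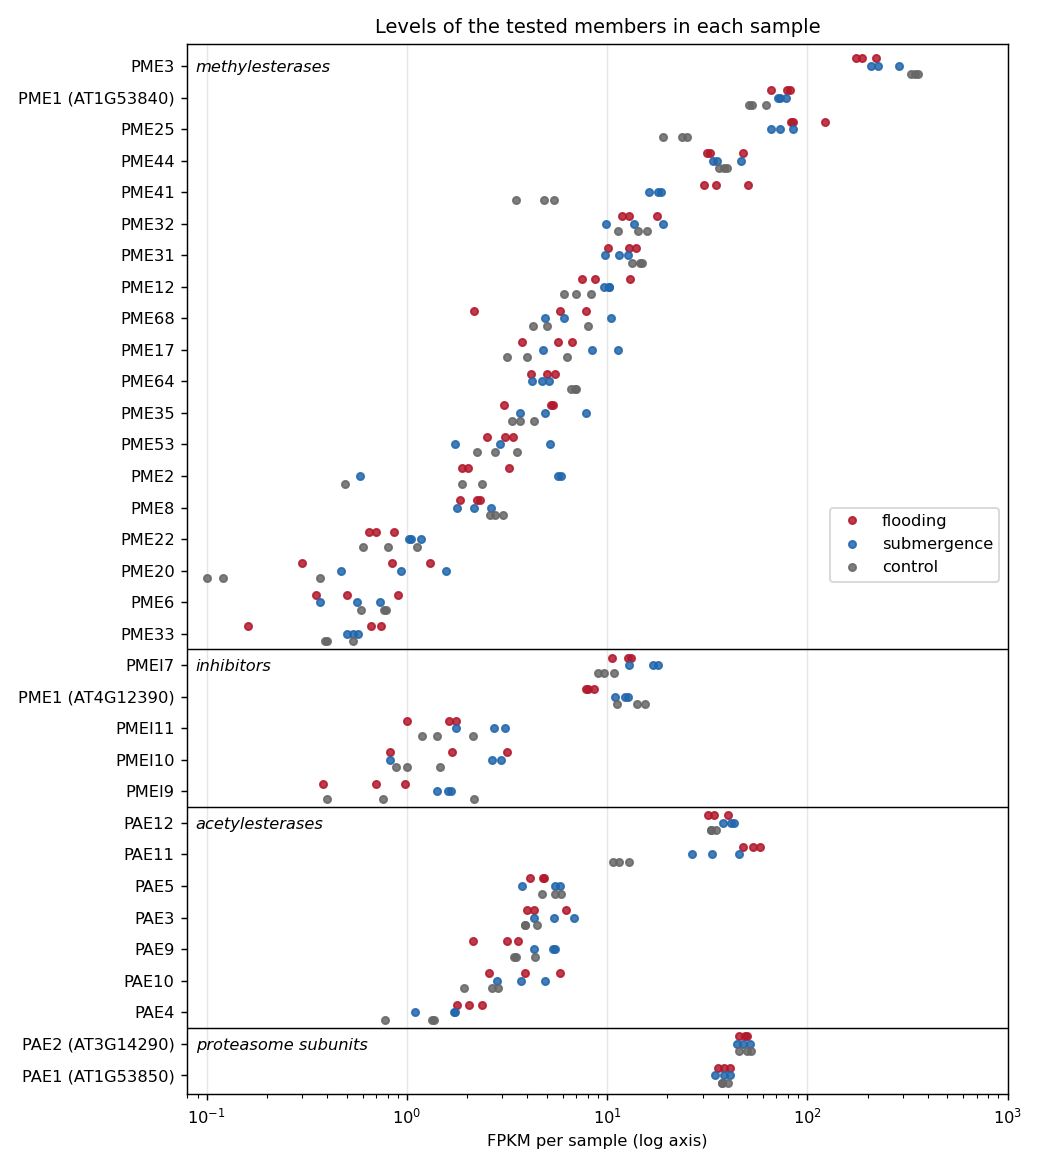
FPKM of the 33 tested members in each of the 9 samples on a log axis, with 1 point per sample, flooding above submergence above control in each row, and members ordered by role and mean level. The control points of PME25, PME41 and PAE11 lie left of all their stressed points, while those of PME3 lie to the right.

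Members often sit side by side in the genome with very unequal levels. There are 20 pairs of neighbouring members no more than 10000 bases apart, which involve 36 members. In 8 pairs a single gene passed the filter on low values, in 5 pairs both did and in 7 pairs neither did. PME24 and PME25 are 30 bases apart on chromosome 3, with means of 0.0011 and 64.6 FPKM. PME26 lies 1896 bases from PME3 and was listed at 0 in all samples. PMEI4, also at 0 throughout, lies 239 bases from PMEI7, and PME40, at 0.0522 FPKM, lies 6170 bases from PME41. Both genes named for the proteasome adjoin methylesterase genes, with 65 bases between PME1 and PAE1 (AT1G53850) and 295 bases between PAE2 (AT3G14290) and PME26.

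The annotation splits the methylesterases by coding length. In 38 of them the longest coding sequence has 1425 to 2907 bases, and in 16 it has 741 to 1224 bases. Of the longer ones 15 were tested (39.5%), and of the shorter ones 4 (25.0%). All 6 member methylesterases called in any comparison belong to the longer class, as do 15 of the 19 that were tested. The inhibitors have coding sequences of 522 to 939 bases in 1 or 2 exons, and the acetylesterases of 1167 to 1356 bases in 11 to 13 exons.

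Both stresses raised a few members strongly and lowered the most abundant one. In flooding against control 4 of 32 tested members rose and 3 fell, where 11.4% of all tested genes rose and 17.2% fell. In submergence against control 6 of 32 rose and 2 fell, where 9.03% of all tested genes rose and 8.45% fell. In either direction 7 members were called in flooding against control, where 28.5% of all tested genes were called, and 8 in submergence against control, where 17.5% were. The share of members called in either direction thus lay near the background, somewhat below it in flooding and somewhat above it in submergence. The 32 members include the 2 proteasome subunits, and neither difference in share was tested. Counted without a test, the samples did not overlap in 9 of 32 members in flooding against control, where they did not overlap in 46.6% of all tested genes, and in 11 of 32 members in submergence against control, where they did not in 38.5%. The median log2 fold change of the 32 tested members was 0.04 in flooding against control, where that of all tested genes was -0.10, and 0.39 in submergence against control, where that of all tested genes was -0.03. Both comparisons share the 3 control samples, so calls in both are not independent.

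**Figure D2:**
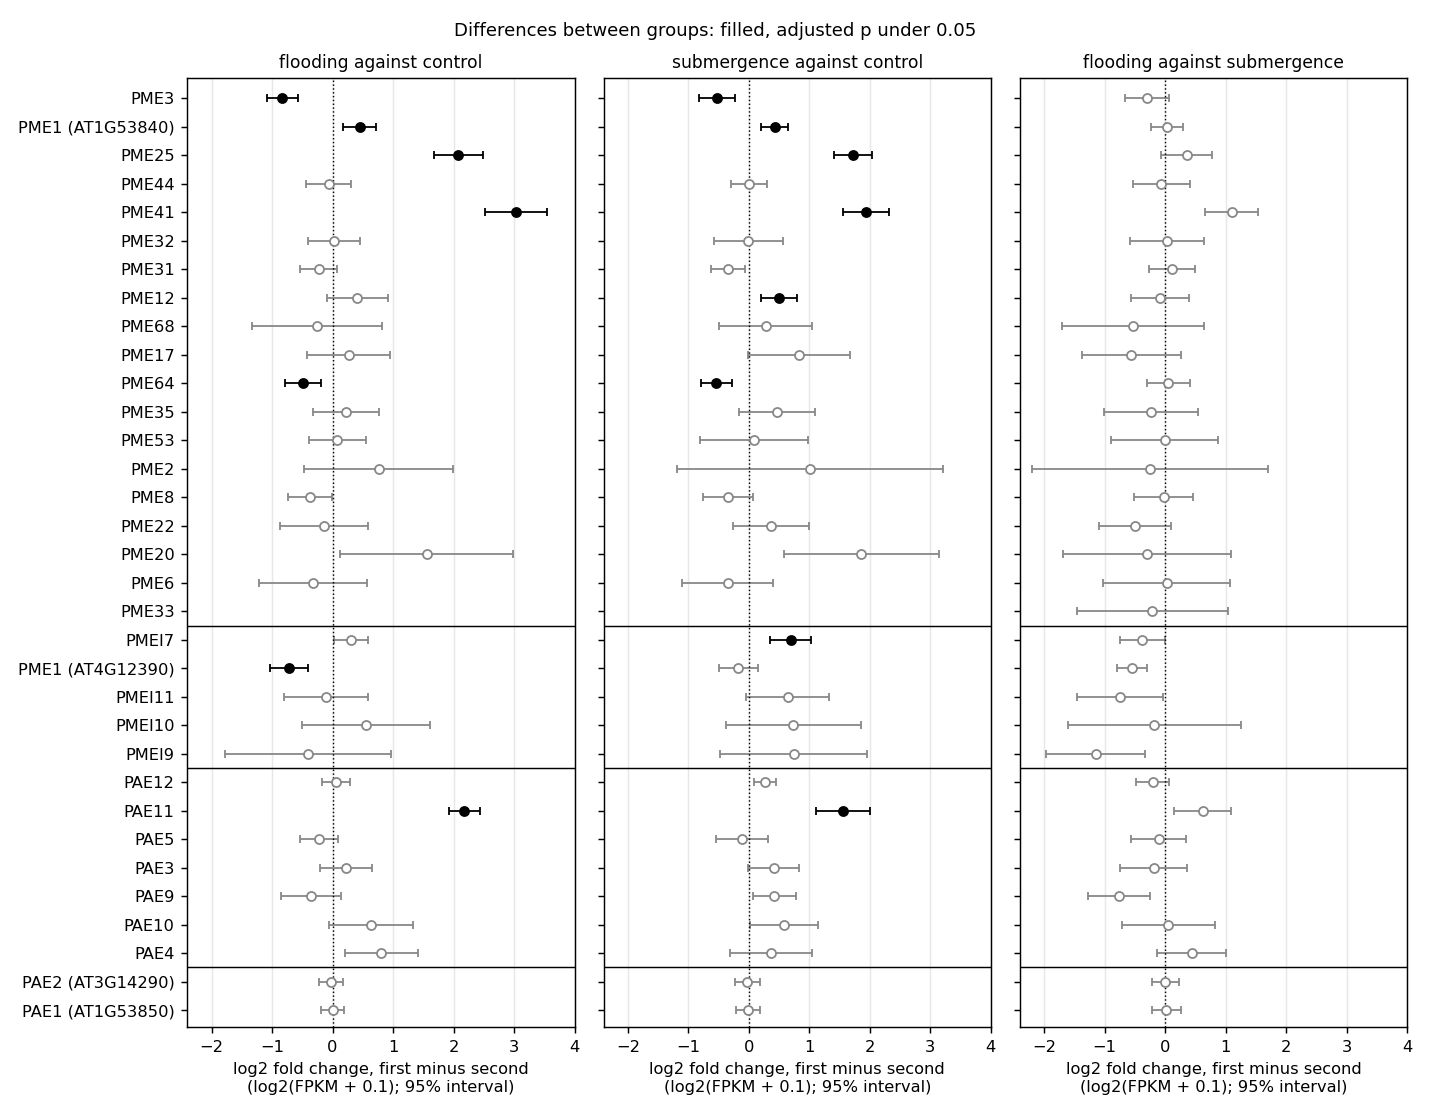
log2 fold changes of the tested members with their 95% intervals, in flooding against control, submergence against control and flooding against submergence from left to right, with filled points where the adjusted p was under 0.05. PME41, PME25 and PAE11 stand out to the right in both stresses, and no point is filled between the stresses.

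PME41 (AT4G02330, chromosome 4, positions 1032350 to 1035055, plus strand) had the largest fold change of all members. It encodes a methylesterase known to respond to chilling and brassinosteroids. Its transcripts were at 50.3, 34.9 and 30.6 FPKM in flooding samples, 16.2, 18.5 and 18.0 FPKM in submergence samples and 5.43, 3.51 and 4.82 FPKM in control samples. The 3 groups did not overlap, and every flooding sample was also above every submergence sample. In flooding against control the log2 fold change was 3.03 ± 0.22 (SE), an 8.19-fold rise (limma, adjusted p = 6.58e-05). In submergence against control it was 1.94 ± 0.16 (SE), a 3.83-fold rise (limma, adjusted p = 0.00101).

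PME25 (AT3G10720, chromosome 3, positions 3354406 to 3357754, minus strand), a methylesterase of the longer class, rose in both stresses. It was at 84.4, 83.2 and 122 FPKM in flooding samples, 65.5, 73.2 and 85.1 FPKM in submergence samples and 25.0, 23.7 and 19.1 FPKM in control samples. All stressed samples were above all control samples, while the flooding and submergence samples overlapped. The log2 fold change was 2.08 ± 0.17 (SE) in flooding against control (limma, adjusted p = 0.000127). It was 1.72 ± 0.14 (SE) in submergence against control (limma, adjusted p = 0.000869). Its start is the gene start behind the window with 5 TTGAC or GTCAA matches printed above.

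PME1 and PME12 rose by less. PME1 (AT1G53840) was at 65.7, 79.5 and 81.7 FPKM in flooding samples, 78.1, 71.3 and 72.7 FPKM in submergence samples and 62.0, 52.7 and 51.1 FPKM in control samples, with no overlap between stressed and control samples. Its log2 fold changes were 0.45 in flooding (limma, adjusted p = 0.0256) and 0.43 in submergence (limma, adjusted p = 0.0231). PME12 (AT2G26440) had 10.2, 9.62 and 10.3 FPKM in submergence samples, against 8.32, 6.98 and 6.10 FPKM in control samples, a log2 fold change of 0.50 (limma, adjusted p = 0.0366). In flooding samples it had 13.0, 8.68 and 7.45 FPKM, which overlap the control samples, and the adjusted p was 0.199. The smaller rises were fragile. PME1 was no longer called without control replicate 2 or 3 in either stress, without flooding replicate 2 or without submergence replicate 3, with adjusted p up to 0.0977 in flooding and 0.0979 in submergence. Of the fits that left out a sample, PME12 stayed called only in that without control replicate 1, and reached an adjusted p of 0.126 in the others. It was also lost with no filter on low values (adjusted p = 0.0546), with eBayes without the trend (0.0518) and with all 9 samples in the fit (0.122).

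PME3 (AT3G14310, chromosome 3, positions 4771833 to 4775258, minus strand) fell in both stresses. It was at 187, 221 and 174 FPKM in flooding samples, 227, 286 and 209 FPKM in submergence samples and 328, 345 and 359 FPKM in control samples. Every stressed sample was below every control sample. The log2 fold change was -0.83 ± 0.11 (SE) in flooding against control (limma, adjusted p = 0.00129), or 0.562 times the control level. It was -0.53 ± 0.12 (SE) in submergence against control (limma, adjusted p = 0.0292). The call in submergence was lost under eBayes without the trend (adjusted p = 0.0505), and without any single control sample or without submergence replicate 3, with adjusted p up to 0.112.

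PME64 (AT5G64640) was the other methylesterase that fell. It was at 5.01, 5.47 and 4.18 FPKM in flooding samples, 5.11, 4.73 and 4.23 FPKM in submergence samples and 6.99, 6.92 and 6.58 FPKM in control samples, again without overlap between stressed and control samples. The log2 fold changes were -0.48 in flooding (limma, adjusted p = 0.0265) and -0.54 in submergence (limma, adjusted p = 0.0165). Both calls were lost without any single control sample, and that in flooding also without flooding replicate 1, with adjusted p up to 0.0991 in flooding and 0.0785 in submergence.

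**Figure D3:**
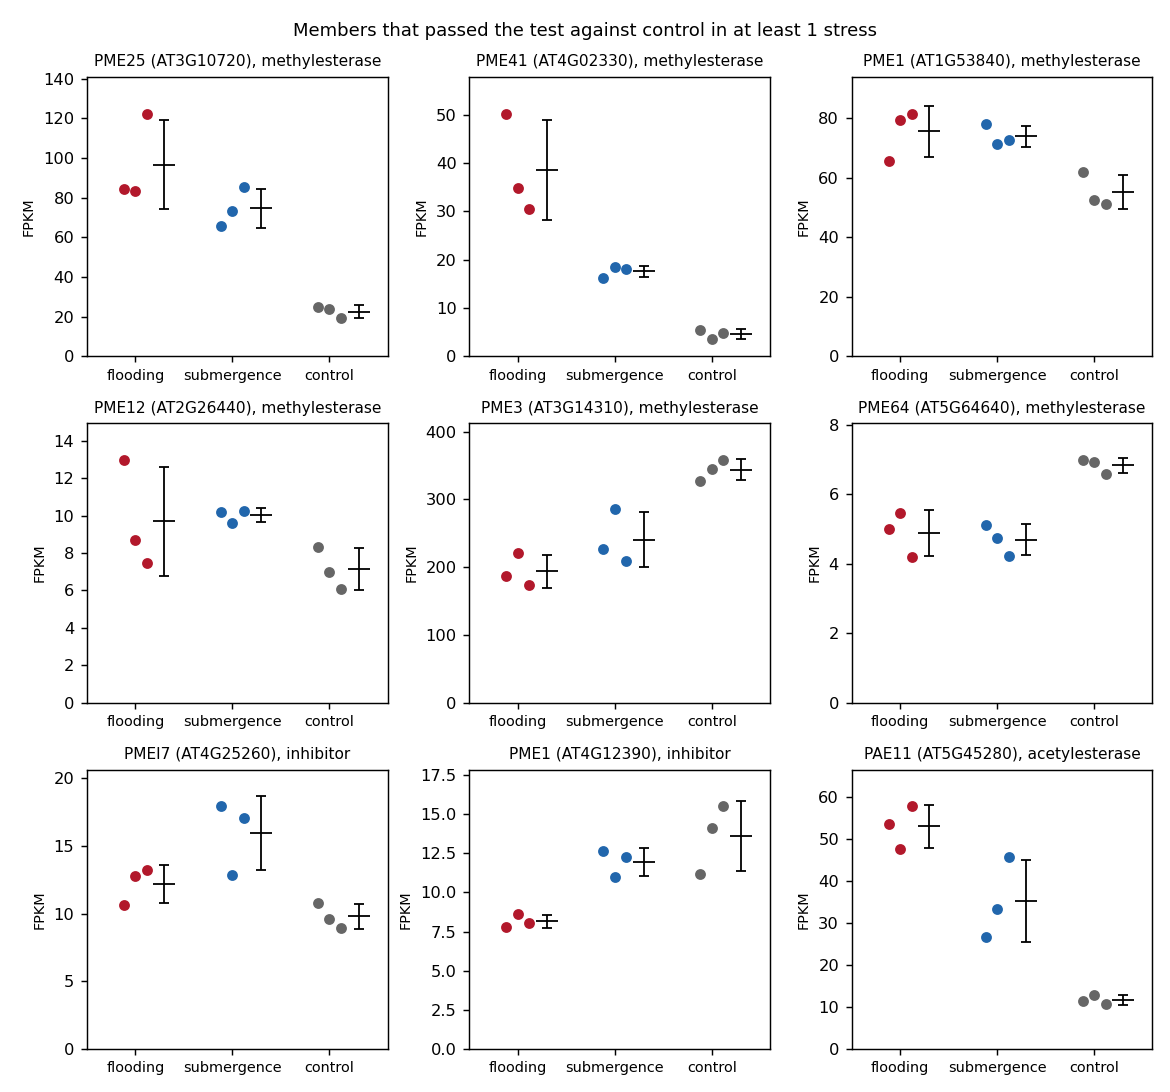
FPKM of the 9 members called against control in at least 1 stress, with 1 point per sample and the mean ± SD of 3 samples beside it. In PME25, PME41 and PAE11 all stressed samples lie above all control samples, and in PME3 and PME64 all lie below. In the inhibitor AT4G12390 all flooding samples lie below all control samples, while submergence and control samples overlap.

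The sum of the transcripts of the member methylesterases was also examined, and the share of the called genes PME3, PME25 and PME41 in it. Methylesterases of other names are left out of it. Among those are ATPMEPCRA, with 40.0 to 99.2 FPKM over all samples, and ATPMEPCRF, with 45.5 to 69.0 FPKM. ATPMEPCRA was called up in submergence, so the sum does not stand for all methylesterase transcripts. The summed level of the 54 methylesterases was 509 ± 24.9 FPKM in flooding samples, 520 ± 41.8 FPKM in submergence samples and 531 ± 3.93 FPKM in control samples (SD, n = 3 each). The exact two-sided permutation test gave p = 0.4 for flooding against control and p = 0.8 for submergence against control, where 3 samples against 3 allow no p under 0.1. PME3 made up 37.6%, 41.2% and 35.3% of that sum in flooding samples, 46.0%, 50.4% and 41.8% in submergence samples and 61.4%, 64.9% and 68.1% in control samples. PME25 and PME41 together made up 27.1%, 21.9% and 31.0% in flooding samples, 16.6%, 16.2% and 20.7% in submergence samples and 5.71%, 5.10% and 4.55% in control samples. Neither share overlapped between any 2 of the groups. Since these genes were chosen for their calls in the same samples, the shares are a description, and their permutation tests are not used here. The methylesterases other than these 3 summed to 180 ± 16.8 FPKM in flooding samples, 187 ± 3.11 FPKM in submergence samples and 160 ± 15.9 FPKM in control samples (SD, n = 3 each). Transcript levels say nothing of the amount or activity of the enzymes.

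**Figure D4:**
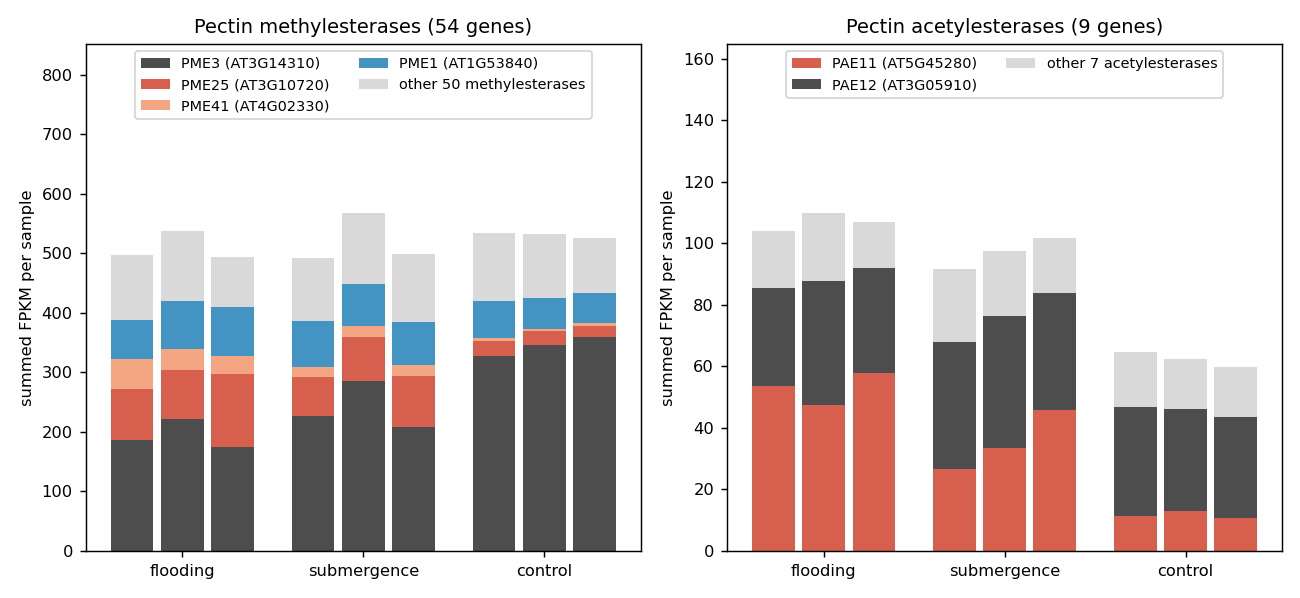
Summed FPKM of the 54 member methylesterases on the left, without those of other names, and of the 9 acetylesterases on the right. There is 1 bar per sample, grouped as flooding, submergence and control, and both axes start at 0. The bars on the left keep a similar height while the part from PME3 is smallest in flooding samples, and those on the right are highest in flooding samples through PAE11.

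The other member methylesterases did not pass the test. PME44 (AT4G33220), the fourth of the member methylesterases in level, had log2 fold changes of -0.06 in flooding (95% interval -0.44 to 0.31) and of less than 0.01 in size in submergence (95% interval -0.30 to 0.30). PME31 (AT3G29090), known to remove methyl groups in blocks and one of the shorter class, was at 11.4, 12.7 and 9.72 FPKM in submergence samples, against 14.9, 14.6 and 13.3 FPKM in control samples. Its groups did not overlap, and the adjusted p was 0.0886. PME20 (AT2G47550), a gene of low level, had 0.47, 0.93 and 1.57 FPKM in submergence samples, against 0.37, 0.10 and 0.12 FPKM in control samples, with a log2 fold change of 1.86 and an adjusted p of 0.0587. It overlaps ATL64 by 76 bases on the opposite strand, and ATL64 was itself called up in submergence with a log2 fold change of 0.79 (limma, adjusted p = 0.0342). The library kit keeps the strand, but the setting used in counting is not given in the sources used here, so reads of the 2 genes may not be separated.

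PME17 (AT2G45220), which fungal infection is known to induce, and PME2 (AT1G53830) varied widely within groups. PME17 was at 5.65, 6.66 and 3.75 FPKM in flooding samples, 4.77, 8.43 and 11.4 FPKM in submergence samples and 6.32, 3.97 and 3.17 FPKM in control samples. PME2 was at 2.02, 1.89 and 3.25 FPKM in flooding samples, 0.58, 5.70 and 5.91 FPKM in submergence samples and 2.38, 1.89 and 0.49 FPKM in control samples. In both genes the groups overlapped. The 95% interval of PME2 in submergence against control ran from -1.19 to 3.21 on the log2 scale, so that neither a fall nor a large rise could be seen or dismissed at this spread. Over the 33 tested members the median SD of the log2 level was 0.32 in flooding samples, 0.26 in submergence samples and 0.21 in control samples, against 0.19, 0.17 and 0.11 over all genes with a mean of at least 0.5 FPKM.

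Among the inhibitors PMEI7 was called in submergence and AT4G12390 in flooding, and neither was called between the stresses. PMEI7 (AT4G25260), an inhibitor known to act on PME3 in vitro, had 18.0, 12.9 and 17.0 FPKM in submergence samples, against 10.8, 9.63 and 8.95 FPKM in control samples. The groups did not overlap, and the log2 fold change was 0.69 ± 0.14 (SE; limma, adjusted p = 0.0198). The call was lost without control replicate 2 or 3 or without submergence replicate 3, with adjusted p up to 0.0803. In flooding samples PMEI7 had 10.6, 12.7 and 13.2 FPKM, which overlap the control samples, with a log2 fold change of 0.31 and an adjusted p of 0.0955. PMEI7 shares 306 bases on the same strand with AT4G25270, which had 4.42 to 5.44 FPKM over the 9 samples and was not called.

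The inhibitor AT4G12390 fell in flooding. It was at 7.81, 8.63 and 8.03 FPKM in flooding samples, 12.7, 10.96 and 12.3 FPKM in submergence samples and 11.2, 14.1 and 15.5 FPKM in control samples. All flooding samples were below all others, while submergence and control samples overlapped. The log2 fold change was -0.72 ± 0.13 (SE) in flooding against control (limma, adjusted p = 0.00683) and -0.17 ± 0.14 (SE) in submergence against control (limma, adjusted p = 0.436). The gene shares 163 bases with HOP3 on the opposite strand, which had 0.86 to 1.88 FPKM and was not called.

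The other 3 tested inhibitors were low and were not called. PMEI10 (AT1G62760) and PMEI11 (AT3G47380), both known from immunity to Botrytis, had 0.82 to 3.17 FPKM and 1.00 to 3.10 FPKM over the 9 samples. PMEI9 (AT1G62770) had 0.98, 0.70 and 0.38 FPKM in flooding samples, 1.66, 1.61 and 1.41 FPKM in submergence samples and 2.17, 0.40 and 0.76 FPKM in control samples, so that its control samples spanned nearly the whole range. PMEI6 (AT2G47670), an inhibitor of seed mucilage, was below the filter with 0.10 to 0.64 FPKM. The summed level of the 11 inhibitors was 24.8 ± 2.45 FPKM in flooding samples, 34.7 ± 3.78 FPKM in submergence samples and 27.9 ± 0.66 FPKM in control samples (SD, n = 3 each). Every submergence sample was above every flooding and every control sample (exact permutation p = 0.1 in both, the smallest possible), while flooding and control samples overlapped (p = 0.2). The sum leaves out any inhibitor without a name of the form used here, and only 13415 of the 32833 genes carry a name.

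Among the acetylesterases PAE11 was the single gene called, and it rose in both stresses. PAE11 (AT5G45280, chromosome 5, positions 18345534 to 18349695, plus strand) had 53.5, 47.6 and 57.9 FPKM in flooding samples, 26.6, 33.3 and 45.7 FPKM in submergence samples and 11.5, 12.8 and 10.6 FPKM in control samples. No 2 groups overlapped. In flooding against control the log2 fold change was 2.17 ± 0.11 (SE), a 4.51-fold rise (limma, adjusted p = 1.16e-05). In submergence against control it was 1.55 ± 0.19 (SE), a 2.94-fold rise (limma, adjusted p = 0.00308).

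PAE12 (AT3G05910), the acetylesterase with the highest level in control samples, was at 32.0, 40.0 and 34.1 FPKM in flooding samples, 41.4, 42.9 and 38.0 FPKM in submergence samples and 35.2, 33.1 and 33.0 FPKM in control samples. Its submergence samples were all above the control samples, and the log2 fold change of 0.27 missed the threshold with an adjusted p of 0.0519. PAE4 (AT3G09405) had 2.37, 1.77 and 2.04 FPKM in flooding samples, against 1.37, 0.78 and 1.33 FPKM in control samples. These groups did not overlap, and the log2 fold change of 0.81 had an adjusted p of 0.0533. PAE4 and PAE5 overlap by 37 bases on the same strand.

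PAE9 (AT5G23870), which is known to remove acetate from the walls of Arabidopsis leaves, was at 3.16, 3.58 and 2.15 FPKM in flooding samples, 4.29, 5.48 and 5.35 FPKM in submergence samples and 3.49, 4.35 and 3.41 FPKM in control samples. Its adjusted p was 0.258 in flooding and 0.107 in submergence. PAE3 (AT2G46930), annotated with the same role, had log2 fold changes of 0.22 and 0.41 in flooding and in submergence, with adjusted p of 0.423 and 0.169. PAE5 (AT3G09410) had -0.22 in flooding and -0.11 in submergence, and PAE10 (AT5G26670) 0.64 and 0.59, and neither passed the test. PAE1 (AT1G09550) and PAE2 (AT1G57590), the acetylesterases of these names, had means of 0.0022 and 0.04 FPKM and were not tested.

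The sum of the member acetylesterases, unlike that of the member methylesterases, differed between the groups without overlap. It was 104, 110 and 107 FPKM in flooding samples, 91.6, 97.5 and 102 FPKM in submergence samples and 64.8, 62.4 and 59.7 FPKM in control samples (exact permutation p = 0.1 for each pair of groups, the smallest possible). PAE11 alone made up 49.6 ± 5.65% of it in flooding samples, 36.1 ± 8.13% in submergence samples and 18.7 ± 1.61% in control samples (SD, n = 3 each). Without PAE11 the sum was 53.9 ± 7.27 FPKM in flooding samples, 61.7 ± 4.99 FPKM in submergence samples and 50.6 ± 2.30 FPKM in control samples. Flooding and control samples then overlapped, while every submergence sample was still above every control sample (exact permutation p = 0.1, the smallest possible).

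The proteasome subunits that share the PAE name stayed apart from this pattern. PAE1 (AT1G53850) was between 34.6 and 41.1 FPKM and PAE2 (AT3G14290) between 44.7 and 52.1 FPKM in all 9 samples. The log2 fold changes of both were within 0.03 of 0 in each stress, with 95% intervals between -0.24 and 0.19.

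Between the stresses 0 of 33 tested members were called by limma, and 0 of 18864 genes (0%). At an unadjusted p under 0.05 there were 7 members, where 2780 genes (14.7% of those tested) passed, and the adjusted p of these members was at least 0.13. The samples did not overlap in 7 members either, where they did not in 21.6% of all tested genes. PME41 had a log2 fold change of 1.10 ± 0.19 (SE) in flooding against submergence (limma, adjusted p = 0.13), and PAE11 of 0.62 ± 0.20 (SE; limma, adjusted p = 0.24), each with every flooding sample above every submergence sample. With all 9 samples in the fit PME41 was called, with an adjusted p of 0.0453. PAE9 had -0.77 ± 0.22 (SE; limma, adjusted p = 0.21), with every flooding sample below every submergence sample. PME25 and PME3 had 0.36 and -0.30 on the log2 scale, with 95% intervals from -0.07 to 0.78 and from -0.67 to 0.06.

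The inhibitors made up 4 of those 7 members, all lower in flooding than in submergence. They were PMEI9 with a log2 fold change of -1.15, PMEI11 with -0.75, AT4G12390 with -0.55 and PMEI7 with -0.38, and their adjusted p ranged from 0.143 to 0.337. The median over the 5 tested member inhibitors was -0.55, where that of all tested genes was -0.07. It was -0.06 over the 19 tested member methylesterases and -0.11 over the 7 tested member acetylesterases. PMEI7 and PMEI11 overlapped between the stresses, while PMEI9 and AT4G12390 did not.

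Several genes of pectin synthesis rose in both stresses. Of 28 listed genes of homogalacturonan synthesis 26 were tested, of which 10 rose and 1 fell in flooding, where 11.4% of all tested genes rose and 17.2% fell, and 10 rose and 0 fell in submergence, where 9.03% rose and 8.45% fell. Their median log2 fold change was 0.19 in flooding, where that of all tested genes was -0.10, and 0.31 in submergence, where that of all tested genes was -0.03. GATL10, a galacturonosyltransferase-like gene, had 29.5, 24.3 and 26.1 FPKM in flooding samples, 9.88, 26.0 and 15.9 FPKM in submergence samples and 1.99, 2.08 and 3.06 FPKM in control samples, with log2 fold changes of 3.45 in flooding and 2.73 in submergence. GATL2 had 2.15 and 1.58, and GATL9 1.54 and 1.51. CGR2, which methylesterifies homogalacturonan in the Golgi, had 119, 126 and 139 FPKM in flooding samples, 99.8, 106 and 113 FPKM in submergence samples and 59.6, 58.6 and 58.8 FPKM in control samples, a log2 fold change of 1.11 in flooding and 0.85 in submergence. QUA2, another such methyltransferase, rose by 0.47 and 0.72. The list also holds GATL1, known as PARVUS, which acts on xylan and rose in flooding by 0.78.

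Among wall-associated kinases, a family whose best known members bind pectin, 13 of 24 listed genes were tested, of which 6 rose and 0 fell in flooding, where 11.4% of all tested genes rose and 17.2% fell, and 2 rose and 0 fell in submergence, where 9.03% rose and 8.45% fell. Their median log2 fold change was 0.38 in flooding and 0.02 in submergence, where those of all tested genes were -0.10 and -0.03. WAKL2 had 26.3, 23.2 and 30.8 FPKM in flooding samples, 10.13, 20.0 and 21.3 FPKM in submergence samples and 1.59, 1.81 and 1.58 FPKM in control samples, with log2 fold changes of 3.93 in flooding and 3.22 in submergence. WAKL10 rose in flooding by 2.32, and WAKL6 by 1.79 in flooding and 0.95 in submergence. PGIP1 and PGIP2, which inhibit fungal polygalacturonases, rose in flooding by 0.57 and 0.45, and neither was called in submergence. A list meant for polygalacturonases and pectate lyases matched 12 genes by name, of which 5 were tested. Among these PLL1, PLL2, PLL4 and PLL5 are POLTERGEIST-like phosphatases and not pectate lyases. The remaining tested gene, PMR6, a pectate lyase-like gene of powdery mildew susceptibility, was the single call, with -0.58 in flooding.

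Subtilases include the proteases that cut the inhibitor-like domain off methylesterases before secretion. Of 44 genes listed by name 25 were tested in flooding, with 1 that rose and 4 that fell. In submergence 24 were tested, with 0 that rose and 3 that fell. The tested genes include SLP2 (AT1G18480), a Shewanella-like phosphatase and not a subtilase, which was not called in either stress. Over all tested genes 11.4% rose and 17.2% fell in flooding and 9.03% rose and 8.45% fell in submergence, so the falls of subtilases were near the background. The median log2 fold change of the tested genes of this list was -0.07 in flooding and -0.10 in submergence. SBT6.1, the site-1 protease known for that processing in Arabidopsis, had 7.15, 6.83 and 6.07 FPKM in flooding samples, 9.06, 8.80 and 7.69 FPKM in submergence samples and 11.6, 12.1 and 13.3 FPKM in control samples. Its log2 fold changes were -0.88 in flooding (limma, adjusted p = 0.000846) and -0.53 in submergence (limma, adjusted p = 0.0139). SBT3.3, a gene of immune priming, rose in flooding by 1.34, and SBT1.6 had -0.63. SBT1.4 had -0.37 in submergence and -0.38 in flooding, where it was not called. SBT1.7, needed for mucilage release from seeds, fell in both stresses, with -0.50 in flooding and -0.31 in submergence. Of 5 methylesterases whose deposited name is not of the form used here 2 were tested. ATPMEPCRA (AT1G11580) had 92.1, 76.7 and 68.1 FPKM in submergence samples, against 49.9, 53.8 and 45.6 FPKM in control samples, a log2 fold change of 0.66 (limma, adjusted p = 0.0138). In flooding samples it had 99.2, 85.3 and 40.0 FPKM, which overlap the control samples, with an adjusted p of 0.283. The other, ATPMEPCRF (AT5G53370), was not called in either stress. These lists were chosen with earlier results of the same samples known, so their counts are a description.

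The levels of marker genes were those of rosettes, with root hair and pollen genes at or near 0. The 7 genes of leaf photosynthesis summed to between 34790 and 42910 FPKM in flooding samples, 39270 and 42450 FPKM in submergence samples and 44570 and 51270 FPKM in control samples, and the 3 guard cell genes to 35.6 to 38.2, 35.2 to 43.4 and 44.6 to 50.5 FPKM in the same order. Both sums were lower in every stressed sample than in every control sample, but single genes of both lists went the other way. LHCB2.1 had 1013 to 1413 FPKM in flooding samples and 1023 to 1171 FPKM in submergence samples, against 662 to 746 FPKM in control samples. KAT1 had 7.37 to 9.01 FPKM in flooding samples and 7.66 to 9.31 FPKM in submergence samples, against 5.70 to 6.34 FPKM in control samples, and RCA overlapped between the groups. The part of these genes in the results above was not tested, and in pooled tissue fewer cells of a type and less RNA per cell cannot be told apart for any gene. Of 5 root genes the root hair genes EXPA7 and EXPA18 were at 0 in all samples and the sum was carried by PYK10, with 30.3 to 141 FPKM in flooding samples, 68.1 to 121 in submergence samples and 44.2 to 106 in control samples. The 5 pollen genes summed to 0.21 to 0.40, 0.20 to 0.36 and 0.47 to 0.66 FPKM, with ANX2 at 0 in all samples, and the 4 vascular genes to 58.9 to 68.3, 67.4 to 69.5 and 65.0 to 80.2 FPKM, again in that order of groups.

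The shoot apex differed between samples of every group. The 7 apex and meristem genes summed to 0.17 to 6.97 FPKM in flooding samples, 0.14 to 10.3 FPKM in submergence samples and 0.14 to 3.47 FPKM in control samples, with CLV3 at 0 throughout. SHOOT MERISTEMLESS was at 0.02 FPKM in flooding replicate 3, 0.05 FPKM in submergence replicate 3 and 0 in control replicate 2, against 1.05 FPKM or more in the other 6 samples. PME68 (AT5G47500) had its lowest values of both stresses, 2.16 and 4.87 FPKM, in the same flooding and submergence samples, but in control replicate 2 it had 5.01 FPKM, above the 4.26 FPKM of control replicate 3. Without these 3 samples, which left 2 samples a group, PME25, PME41 and PAE11 were still called up in both stresses and PME3 and AT4G12390 down in flooding, with adjusted p of at most 0.0472. The calls of PME1, PME12, PME64, PMEI7 and of PME3 in submergence were then lost, with adjusted p from 0.103 to 0.235.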

How the data were processed

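RNA-Seq was made from rosettes of 9 samples, 3 each for flooding, submergence and control. According to the study's methods, poly(A) RNA was made into strand-keeping libraries, and trimmed reads were mapped to TAIR10 with STAR and counted with featureCounts. The deposited values are FPKM with 2 decimals, made by the authors by normalizing to total counts and transcript length. Another counting tool is named with the deposited table, so which tool made the values is open. The authors tested their counts with DESeq2 1.20.0. Read counts were not used here, and the depth behind a value is unknown. The number of columns of other samples was 0. Control columns carry that name, and headings of the study's supplementary plots told which stressed columns hold submergence and which flooding.

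FPKM were used without rescaling and summed to 752249 to 786474 per sample over all genes. The 6 samples of a comparison entered a limma model (version 3.58.1, R 4.3.3, eBayes with trend) of log2(FPKM + 0.1). Genes needed a mean of 0.5 FPKM or more over those samples. Calls used two-sided Benjamini-Hochberg adjusted p over all genes tested. Fold changes on this scale understate changes of low genes. Sums and shares were compared by exact two-sided permutation tests in scipy 1.17.1. Python 3.11.15 with pandas 2.3.3, numpy 2.4.6 and matplotlib 3.10.9 gave the other tables and the figures.

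Genes named were members called in any comparison, the 5 with the highest mean in each name family, all tested PAE genes and, of each other pectin list, up to 3 called genes with the largest change. Other members, GATL1, QUA2 and CGR2 were named after their values were seen, as were overlapping genes. The members and lists were chosen with earlier results of these data known. Alternatives were a pseudocount of 1, no filter, a mean of at least 2 FPKM, median-of-ratios and quantile scaling, eBayes without trend, all 9 samples in the fit, the replicate number as a block, leaving out each sample and, chosen after seeing the data, leaving out the sample of each group with the lowest SHOOT MERISTEMLESS value. Protein sequences were not used here. Further upstream sequences are not reported here.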

Additional observations from a re-analysis of the deposited data

Results flagged for a closer look

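PME7 (AT1G02810), a methylesterase below the filter on low values in every comparison, was higher in all stressed samples than in all control samples. It had 0.25, 0.44 and 0.26 FPKM in flooding samples, a mean of 0.317, 0.35, 0.20 and 0.22 FPKM in submergence samples, a mean of 0.257, and 0.08, 0.08 and 0.11 FPKM in control samples, a mean of 0.09. With no filter on low values its log2 fold change was 1.11 in flooding against control (limma, adjusted p = 0.0215) and 0.89 in submergence against control (limma, adjusted p = 0.0535).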

How the results depend on the processing

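The rises of PME25, PME41 and PAE11 in both stresses and the falls of PME3 and the inhibitor AT4G12390 in flooding stayed called under all 9 alternatives and without each of the 6 samples of a comparison. Leaving out each sample in turn gave 3 to 10 members up and 0 to 2 down in submergence, 3 to 7 up and 2 to 3 down in flooding, and 0 in flooding against submergence. Over all genes it gave 890 to 2019 up and 489 to 2187 down in submergence, 1595 to 2697 up and 1643 to 3436 down in flooding, and 0 to 4 up and 0 to 2 down in flooding against submergence. With 2 samples a group, 3 members rose and 0 fell in submergence, 548 genes rose and 225 fell in submergence, and 2072 genes fell in flooding. eBayes without the trend left 1 member down in submergence and called 1 gene down in flooding against submergence. All 9 samples in the fit called 1 member, PME41, and 90 genes up and 141 down in flooding against submergence. As an alternative, median-of-ratios scaling called 2599 genes up and 2333 down in flooding, against 2137 and 3229 without it, and quantile scaling 1562 up and 2199 down in submergence, against 1698 and 1590. The median of all genes in flooding was -0.10 as deposited and -0.01 after median-of-ratios scaling. In flooding against submergence, where none was called, signs turned for PME1 (AT1G53840) without submergence replicate 2, flooding replicate 2 and flooding replicate 3 (-0.001, -0.014 and -0.033, in a range of -0.033 to 0.123 over the samples left out) and with 2 samples a group (-0.046), for PME12 without flooding replicate 3 (0.082, in a range of -0.315 to 0.082) and with 2 samples a group (0.099), and for PME64 without submergence replicate 3 (-0.017) and flooding replicate 2 (-0.030, in a range of -0.030 to 0.160). The causes were not tested.

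With the replicate block 1 member and 1011 genes fell in submergence, and the calls of PME12 and PME3 in submergence and of PME1 in flooding were lost. The replicate numbers showed no steady pairing of the samples over the comparisons, and 3 samples a group cannot exclude one. The deviations of samples with the same number correlated at 0.12, -0.15 and -0.07 between flooding and control, 0.11, -0.14 and -0.01 between submergence and control, and 0.06, 0.16 and 0.47 between flooding and submergence, and not every sample correlated best with its own number. Counting error could not be computed from FPKM, so precision rests on the spread between samples.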
